A study of Homo sapiens
Mus musculus with 8 samples.

Results

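The CD3 chains are the invariant subunits of the T cell receptor, and the 8 genes described here are Cd3d (ENSMUSG00000032094), Cd3e (ENSMUSG00000032093), Cd3g (ENSMUSG00000002033) and Cd247 (ENSMUSG00000005763) of the mouse and CD3D (ENSG00000167286), CD3E (ENSG00000198851), CD3G (ENSG00000160654) and CD247 (ENSG00000198821) of the human. They were chosen by name, as the δ, ε, γ and ζ chain genes, from the 60736 genes of the combined human and mouse count tables (27998 mouse and 32738 human). All 8 passed the filter on low counts in every comparison between lines, kits or preparations of their species.

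The antigen-binding receptor chains have no signalling tails of their own and reach the cell surface only together with CD3δε, CD3γε and the ζ homodimer. When antigen is bound, the kinase Lck phosphorylates tyrosine motifs in the tails of the CD3 chains, and the kinase ZAP-70 docks there to pass the signal on. The δ, ε and γ genes are close relatives that sit side by side on one chromosome, whereas the ζ gene lies on another. T cells carry all of these chains and B cells are known to lack them.

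The study mixed 4 cultured cell lines at equal viable numbers and profiled the mixture with several droplet and plate methods, of which the 10x Chromium libraries are described here. EL4 is a mouse CD4 T cell lymphoma line, IVA12 a mouse B cell line, Jurkat a human CD4 T cell leukemia line, and TALL-104 a human CD8 T cell leukemia line. TALL-104 was grown with interleukin-2, is small and was more difficult to culture, with limited viability and slow growth. No line carried a treatment or an engineered allele. The 7 libraries analysed are replicates 1 to 4 of the 3′ v3 kit, replicates 1 and 2 of the 5′ v1 kit and replicate 2 of the 3′ v2 kit, and the other 3′ v2 library was not analysed here. A unique molecular identifier (UMI) marks 1 captured molecule, at its 3′ end in the 3′ kits and at its 5′ end in the 5′ kit. The supplementary sample list gives one cell mixture for 3′ v3 replicates 1 and 3, another for replicates 2 and 4, and others again for the pair of 5′ v1 libraries and for 3′ v2, so the kit and the cell preparation cannot be told apart across kits. Nothing in the labels says that replicates came from separate cultures, and p-values therefore measure only the spread between libraries.

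Barcodes with at least 1000 UMIs and over 80% of them from 1 species were taken as cells. A mouse cell was assigned to EL4 or IVA12 where Lgals1, S100a6 and Perp together held at least 5 times the UMIs of Epcam, Cd24a, Ctss and Ckap4, or the reverse, and a human cell to TALL-104 or Jurkat where NKG7, CST7 and CD8A held at least 0.1% or under 0.02% of its UMIs. No CD3 chain entered this assignment. The libraries held 24790710 to 251164949 UMIs, 30 to 4136 cells per line and 2.27% to 24.1% barcodes left without a line, with the largest share in 3′ v3 replicate 3. The median cell held 22812 to 27968.5 UMIs in EL4, 10896 to 31126 in IVA12, 10075 to 18522 in Jurkat and 1929 to 2761.5 in TALL-104, and any pair of libraries shared at most 24 cell barcodes. In 3′ v3 replicate 3, 14.3% of the UMIs of TALL-104 cells were mouse UMIs, against 1.13% to 7.60% in the other libraries, so the main TALL-104 results are also given without that library.

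Markers that the assignment did not use were checked in the lines. Of 8 T cell markers, the summed level was 1272 to 2325 CPM (counts scaled to 1000000 UMIs of the line's cells) in EL4 and 18.4 to 52.6 in IVA12, where Cd2 overlapped with EL4 (10.3 to 19.2 against 10.7 to 28.4). Of 10 B cell markers, it was 421 to 625 CPM in IVA12 and 3.81 to 21.4 in EL4, but Cd79a, Cd22, Pax5, H2-Aa and H2-Ab1 were each at most 0.743 CPM there, so the list rested on Cd79b, Ms4a1, Cd74 and Ebf1. Of 7 Jurkat markers, it was 353 to 669 CPM in Jurkat and 22.0 to 110 in TALL-104, with CD4 itself at only 0.762 to 3.63 CPM in Jurkat and MAL at 14.3 to 110 CPM in TALL-104. Of 8 TALL-104 markers, it was 1796 to 2879 CPM in TALL-104 and 35.4 to 118 in Jurkat, but CD8B was higher in Jurkat (median 6.12 CPM, 2.5 to 9.31) than in TALL-104 (median 0.407, 0 to 4.60).

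The mouse chains separated the T cell line from the B cell line in all 7 libraries, and ζ was the lowest of the 4 chains in EL4. Levels in CPM are relative to all UMIs of both species in the line's cells of a library, and are given in the order of 3′ v3 replicates 1, 2, 3 and 4, then 5′ v1 replicates 1 and 2, then 3′ v2. In EL4, Cd3d, the δ chain, was at 701, 343, 733 and 351 CPM, then 547 and 493 CPM, then 376 CPM. The ε chain Cd3e, shared by both CD3 dimers, was at 189, 96.3, 159 and 88.5 CPM, then 172 and 144 CPM, then 58.8 CPM. The γ chain Cd3g was at 361, 158, 367 and 169 CPM, then 196 and 160 CPM, then 204 CPM. Replicates 1 and 3 of 3′ v3 were the highest libraries for the δ and γ chains and replicates 2 and 4 were near or below the other kits. The ζ chain Cd247 was at 14.6, 18.9, 12.9 and 16.0 CPM, then 15.3 in both 5′ v1 libraries, then 9.56 CPM, and replicates 1 and 3 of 3′ v3 did not stand above the others for it. The order Cd3d, Cd3g, Cd3e and Cd247 was seen in each of the 7 libraries, on counts of molecules that were not divided by gene length since each molecule is tagged at 1 end.

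**Figure D1:**
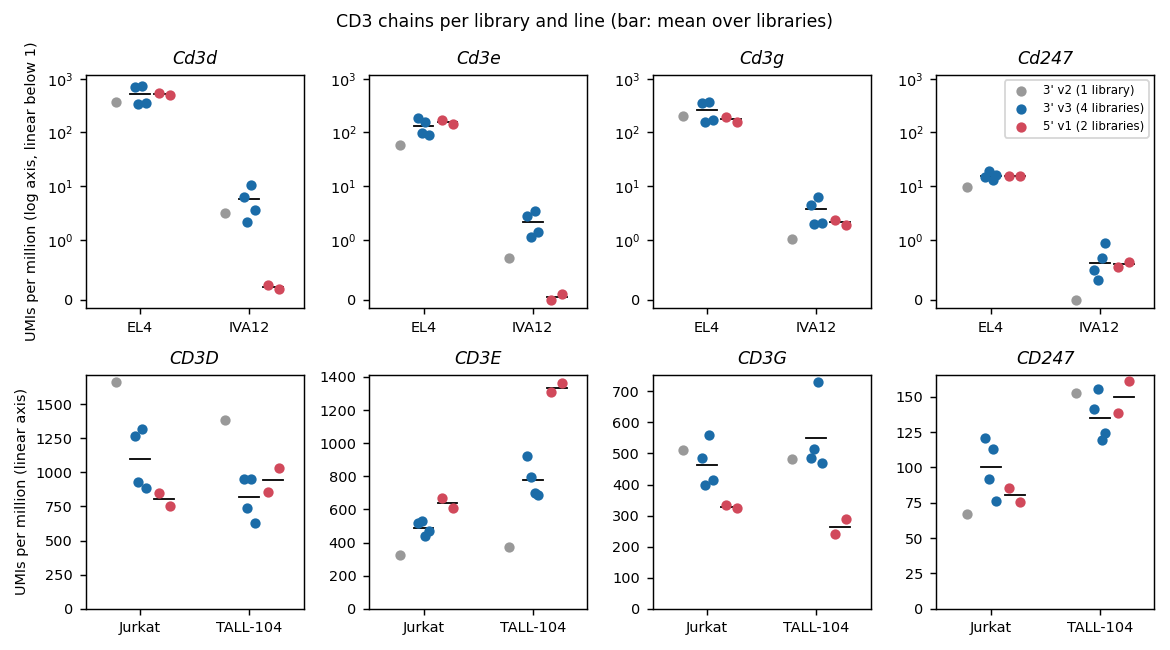
Level of each CD3 chain, in CPM, in each library and line. The upper row shows the mouse chains on a log axis that is linear below 1, the lower row the human chains on a linear axis from 0, each point is 1 library coloured by kit, and horizontal bars are means over the libraries of a kit. For each mouse chain every EL4 point lies above every IVA12 point, while for each human chain the points of Jurkat and TALL-104 overlap across the kits.

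In IVA12, Cd3d was at 6.27, 2.19, 10.6 and 3.68 CPM in 3′ v3, 0.251 and 0.182 CPM in 5′ v1 and 3.10 CPM in 3′ v2. Cd3e was at 2.76, 1.14, 3.47 and 1.42 CPM in 3′ v3, while 5′ v1 replicate 1 held 0 UMIs and replicate 2 held 1. Cd3g was at 4.49, 1.95, 6.37 and 2.10 CPM in 3′ v3, 2.38 and 1.91 CPM in 5′ v1 and 1.03 CPM in 3′ v2. For Cd247 the values were 0.489, 0.325, 0.690 and 0.949 CPM in 3′ v3, 0.543 and 0.636 CPM in 5′ v1 and 0 UMIs in 3′ v2. The groups did not overlap for any chain: the lowest EL4 library stood above the highest IVA12 library. The share of all genes without such overlap was not computed.

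The ratio of EL4 to IVA12 within a library was 112, 156, 69.1 and 95.6 for Cd3d in 3′ v3, and 2183 (95% counting interval 1003 to 5948) and 2711 (750 to 22392) in 5′ v1. For Cd3e it was 68.7, 84.7, 46.0 and 62.2 in 3′ v3. With the 5′ v1 kit, EL4 was at least 1369-fold higher in replicate 1, set against a floor of 3 UMIs in that library, and 1581-fold higher (283 to 62454) in replicate 2. Cd3g did not show that split between 3′ v3 and 5′ v1, with 80.5, 81.0, 57.6 and 80.5 in 3′ v3 and 82.5 and 83.6 in 5′ v1. The ratio of Cd247 was 29.8, 58.2, 18.7 and 16.8 in 3′ v3, and 28.3 and 24.1 in 5′ v1. In 3′ v2 the ratios were 121 (63.8 to 265) for Cd3d, 85.4 (23.5 to 706) for Cd3e and 198 (67.6 to 960) for Cd3g, on 9, 2 and 3 UMIs in IVA12, and Cd247 was at least 9.25-fold higher in EL4. Counting intervals cover counting error only.

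In edgeR's quasi-likelihood test with the library as a block, all 4 mouse chains were higher in EL4 than in IVA12 in both kits. In 3′ v3 the log2 difference was 6.66 ± 0.13 (SE, 4 libraries, adjusted p = 8.6e-11) for Cd3d, 5.97 for Cd3e, 6.25 for Cd3g and 4.58 for Cd247, the largest adjusted p among them being 2.4e-09. In 5′ v1 the fitted differences were 6.58 for Cd3g and 4.94 for Cd247 (largest adjusted p of the 4 chains 9.1e-08, 2 libraries). For Cd3d and Cd3e they were 11.37 and 12.48, but with at most 6 UMIs per IVA12 library these depend on the fit, and the ratios above are the better guide. Of the 13176 mouse genes tested, 41.2% were higher in EL4 and 39% in IVA12 in 3′ v3, and 37.5% and 38.7% in 5′ v1, so a call alone is common between these lines.

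The difference between the lines was itself different between the kits for Cd3d and Cd3e. It was lower in 3′ v3 than in 5′ v1 by 4.70 on the log2 scale (fitted difference −4.70 ± 0.41, adjusted p = 7.9e-05) for Cd3d and by 6.51 (−6.51 ± 0.59, adjusted p = 1.0e-04) for Cd3e. For Cd3g it was −0.33 ± 0.18 (adjusted p = 0.20) and for Cd247 −0.36 ± 0.42 (adjusted p = 0.55), and 30.6% of all mouse genes passed that test in either direction. The EL4 levels of Cd3d and Cd3e overlapped between these kits and the IVA12 levels did not. IVA12 held 6 and 2 UMIs of Cd3d and 0 and 1 of Cd3e in the 5′ v1 libraries. The fitted values of these chains and their ± therefore depend on the fit and are no bounds.

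Droplets that hold no cell carry RNA set free from broken cells, and the same RNA enters droplets with cells. Its share in a line's cells was estimated from UMIs of the other species, and multiplied by the chain's level in barcodes under 100 UMIs to give the level that free RNA would supply. That share was 3.98% to 8.58% of the UMIs of IVA12 cells in 3′ v3 and 0.308% to 0.872% in 5′ v1. In 3′ v3, Cd3d in IVA12 was expected at 8.88, 6.67, 10.6 and 11.9 CPM, and the measured 6.27, 2.19, 10.6 and 3.68 CPM were at or below that in all 4 libraries. In replicate 3 the values were equal at this rounding, so mixed barcodes in the estimate could change that order. In 5′ v1 it was expected at 2.06 and 0.825 CPM, again above the measured 0.251 and 0.182 CPM. Cd3e was measured above the expectation in 3′ v3 replicates 1 and 3 (2.76 against 1.85 and 3.47 against 2.07 CPM) and below it in replicates 2 and 4 (1.14 against 1.37 and 1.42 against 2.71 CPM). In 5′ v1 the 0 and 1 UMIs of Cd3e were below the 9.87 and 2.19 UMIs expected.

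Cd3g and Cd247 did not follow that pattern in every library. In 5′ v1, IVA12 held 57 and 21 UMIs of Cd3g where free RNA would supply 11.9 and 3.28. For Cd3d and Cd3e in this kit the same estimate ran above the measured values, so it is only a rough guide there. In 3′ v3 the measured 4.49, 1.95, 6.37 and 2.10 CPM of Cd3g stood beside 4.69, 3.20, 5.49 and 5.49 CPM expected. Cd247 was above its expectation in all 6 of the 3′ v3 and 5′ v1 libraries, for example with 13 UMIs against 0.818 in 5′ v1 replicate 1 and 39 against 13.1 in 3′ v3 replicate 3, but with only 4 UMIs against 3.30 in 3′ v3 replicate 2, and it never reached 1 CPM. Human CD3D, which a mouse cell cannot make, was seen in 0.439% to 26.7% of IVA12 cells, and mouse Cd3d in 0.439% to 25.2% of them. The origin of the γ and ζ UMIs in IVA12 was not tested.

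**Figure D2:**
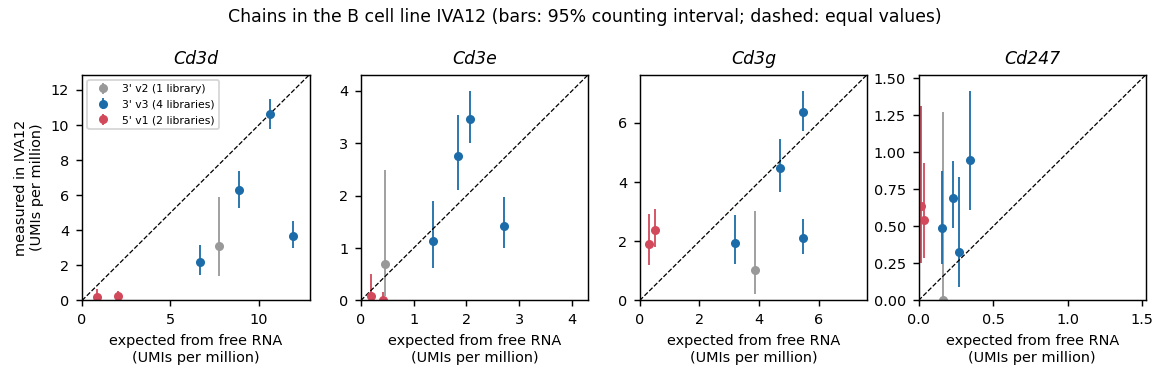
Measured level of each mouse CD3 chain in cells assigned to the B cell line IVA12 (vertical axis) against the level expected from free RNA (horizontal axis), both in CPM, with 1 point per library, colours for kits and bars for 95% counting intervals. Points under the dashed line of equal values are below the expectation, which can include UMIs of mixed barcodes. Cd3d lies on or under the line in all 7 libraries, and the 5′ v1 points of Cd3g lie above it.

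Both human lines expressed all 4 chains. The ε and ζ chains were measured higher in TALL-104 than in Jurkat in each of the 7 libraries, and δ and γ were not. By counting error the lines were not told apart for ε in 3′ v2 and for ζ in 3′ v3 replicate 3. In Jurkat, CD3D was at 1266, 926, 1316 and 884 CPM in 3′ v3, 848 and 756 CPM in 5′ v1 and 1662 CPM in 3′ v2. In TALL-104, CD3D was at 954, 740, 948 and 626 CPM in 3′ v3, 856 and 1029 CPM in 5′ v1 and 1384 CPM in 3′ v2. Jurkat was thus the higher line in all 3′ libraries, and the ranges of the lines overlapped. In 5′ v1 the ratio of Jurkat to TALL-104 was 0.991 (95% counting interval 0.857 to 1.15) in replicate 1, where the lines were not told apart. In replicate 2 it was 0.734 (0.601 to 0.908).

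CD3E was at 517, 529, 440 and 470 CPM in Jurkat in 3′ v3, 669 and 610 CPM in 5′ v1 and 327 CPM in 3′ v2. In TALL-104 it was at 925, 797, 696 and 690 CPM in 3′ v3, 1308 and 1361 CPM in 5′ v1 and 370 CPM in 3′ v2. Within each of the 3′ v3 and 5′ v1 kits the lines did not overlap.

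CD3G was at 485, 397, 560 and 414 CPM in Jurkat in 3′ v3, 334 and 323 CPM in 5′ v1 and 510 CPM in 3′ v2. In TALL-104 it was at 484, 514, 729 and 468 CPM in 3′ v3, 239 and 289 CPM in 5′ v1 and 483 CPM in 3′ v2, so the lines were close and their order changed between libraries. CD247 was at 121, 91.8, 113 and 75.9 CPM in Jurkat and 141, 155, 119 and 124 CPM in TALL-104 in 3′ v3. In 5′ v1 it was at 85.6 and 75.7 CPM in Jurkat and 138 and 161 CPM in TALL-104, and in 3′ v2 at 66.7 and 153 CPM. TALL-104 was higher everywhere, by a margin that ranged from small in 3′ v3 replicate 3 to large in 3′ v2.

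In the same edgeR test, CD3E was lower in Jurkat than in TALL-104 by −0.73 ± 0.14 on the log2 scale in 3′ v3 (adjusted p = 6.3e-05) and by −1.01 ± 0.20 in 5′ v1 (adjusted p = 5.8e-04). CD247 was lower by −0.50 ± 0.13 (adjusted p = 0.0013) and −0.81 ± 0.26 (adjusted p = 0.024). CD3D was higher in Jurkat by 0.35 ± 0.14 in 3′ v3 (adjusted p = 0.026), and CD3G was lower by −0.31 ± 0.13 (adjusted p = 0.042). In 5′ v1 neither passed, with −0.17 (adjusted p = 0.57) for CD3D and 0.38 (adjusted p = 0.23) for CD3G. The median difference of the 12121 human genes tested was 0.19 in 3′ v3, where 39.4% were higher in Jurkat and 28.6% in TALL-104, and 0.36 in 5′ v1, where the shares were 15.3% and 12.9%.

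Without 3′ v3 replicate 3, whose TALL-104 cells held the most mouse RNA, the 3′ v3 differences were 0.43 for CD3D (adjusted p = 0.029), −0.64 for CD3E (adjusted p = 9.5e-04) and −0.54 for CD247 (adjusted p = 0.0025), while that of CD3G was −0.16 and no longer passed (adjusted p = 0.38). The 3′ v3 call of CD3D was lost without 5′ v1 replicate 1 (0.24) or 2 (0.25) and without 3′ v3 replicate 1 (0.32), 2 (0.22) or 4 (0.18), where the adjusted p was 0.10 to 0.36. The 5′ v1 call of CD247 was lost without 3′ v3 replicate 1 (−0.60, adjusted p = 0.10) or 2 (−0.69, adjusted p = 0.056). Without either 5′ v1 library, the 5′ v1 calls of CD247 and CD3E were not kept. With only 5′ v1 replicate 2 left in that kit, the 5′ v1 differences were −0.87 for CD247 and −0.94 for CD3E. With only replicate 1 left, they were −0.54 and −0.82. With all 6 libraries, the difference between the lines was not shown to differ between kits for any human chain. The fitted values were 0.53 for CD3D (adjusted p = 0.38), 0.28 for CD3E (adjusted p = 0.71), −0.69 for CD3G (adjusted p = 0.24) and 0.30 for CD247 (adjusted p = 0.74), in a test that 1.32% of human genes passed. With the preparation of 3′ v3 replicates 1 and 3 alone, CD3D (0.40, adjusted p = 0.041) and CD3G (−0.81, adjusted p = 3.7e-04) passed, and with that of replicates 2 and 4 alone CD3D (0.45, adjusted p = 0.0062), CD3E (0.32, adjusted p = 0.044) and CD3G (−0.77, adjusted p = 5.1e-04) did. Each kit then holds loads of 1 cell mixture only, and the share of all human genes passing there is not given here.

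Between the 2 preparations behind the 3′ v3 libraries, the δ, ε and γ chains passed the test in each line under the settings used throughout, all higher in replicates 1 and 3, and the ζ chain passed in Jurkat but not in EL4, IVA12 or TALL-104. The TALL-104 calls were lost with a species share over 95%. In EL4, Cd3d averaged 717 CPM in replicates 1 and 3 and 347 CPM in replicates 2 and 4. Cd3e averaged 174 against 92.4 CPM and Cd3g 364 against 163 CPM, and Cd247 was in the other order with 13.8 against 17.4 CPM. These 4 libraries were compared by edgeR after the levels had been seen, with 2 loads of 1 cell mixture on each side, so the p-values measure the spread between loads and not between cultures.

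In EL4 the log2 difference between the preparations was 1.41 ± 0.07 for Cd3d (adjusted p = 1.5e-04), 1.27 ± 0.09 for Cd3e and 1.52 ± 0.07 for Cd3g, and 0.03 ± 0.11 for Cd247 (adjusted p = 0.84). In cells of 20000 to 40000 UMIs alone, Cd3d was at 691 and 720 CPM in replicates 1 and 3, against 347 and 355 CPM in the other preparation. In IVA12 the differences were 1.73 ± 0.28 for Cd3d, 1.51 ± 0.24 for Cd3e and 1.69 ± 0.22 for Cd3g (largest adjusted p 3.7e-04), on the few UMIs described above, and 0.03 ± 0.44 for Cd247. In IVA12 the level expected from free RNA, as given above, was at or above the measured Cd3d in all 4 libraries and above the measured Cd3g in 3 of them. The ζ chain did not pass in either mouse line.

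In Jurkat all 4 chains were higher in replicates 1 and 3, by 0.91 ± 0.09 for CD3D, 0.34 ± 0.10 for CD3E (adjusted p = 0.0081), 0.76 ± 0.09 for CD3G and 0.90 ± 0.10 for CD247. In TALL-104 the differences were 0.90 ± 0.12 for CD3D, 0.54 ± 0.13 for CD3E (adjusted p = 0.0022), 0.74 ± 0.16 for CD3G and 0.33 ± 0.15 for CD247, which did not pass (adjusted p = 0.086). The background was high: 30% of genes were higher in replicates 1 and 3 and 26.8% in replicates 2 and 4 in EL4, 33.4% and 34.1% in IVA12, 32.7% and 30.8% in Jurkat, and 19.2% and 20.2% in TALL-104. The median mitochondrial share of a library's cells was lower in replicates 1 and 3 in every line. It was 6.26% and 4.75% in Jurkat, against 10.1% and 10.2% in the other preparation, 7.88% and 4.84% against 9.29% and 9.38% in TALL-104, 5.46% and 3.85% against 6.52% and 6.80% in EL4, and 5.92% and 4.45% against 6.52% and 7.15% in IVA12. With cells under 10% mitochondrial UMIs only, the differences of the δ and ε chains were 1.40 and 1.28 in EL4, 1.86 and 1.44 in IVA12, 0.94 and 0.36 in Jurkat, and 0.96 and 0.52 in TALL-104, all still called. That limit did not make the preparations alike. The median share stayed lower in replicates 1 and 3 in every line, for example at 6.21% and 4.74% against 8.78% and 8.50% in Jurkat. The part of the mitochondrial share in these differences was not tested.

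These values are relative to the median gene. Without the TMM scaling the median of all genes moved to −0.34 in EL4, −0.25 in IVA12, −0.43 in Jurkat and −0.36 in TALL-104. The differences were then 1.04, 0.91 and 1.15 for Cd3d, Cd3e and Cd3g in EL4, all called, and that of Cd247 in EL4 became −0.34 (adjusted p = 0.038). CD3E in Jurkat turned to −0.05 (adjusted p = 0.63) and CD3E in TALL-104 fell to 0.20 (adjusted p = 0.19). Without replicate 4, which leaves replicate 2 alone on its side, the difference of CD3E was 0.26 in Jurkat and 0.47 in TALL-104. The call of CD3E was then not kept in either line. Without replicate 3, which leaves replicate 1 alone on its side, the TALL-104 differences were 0.91, 0.74, 0.40 and 0.47 for CD3D, CD3E, CD3G and CD247. Only 3 TALL-104 cells of replicate 3 had over 95% human UMIs, and under that limit no TALL-104 chain was called.

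**Figure D3:**
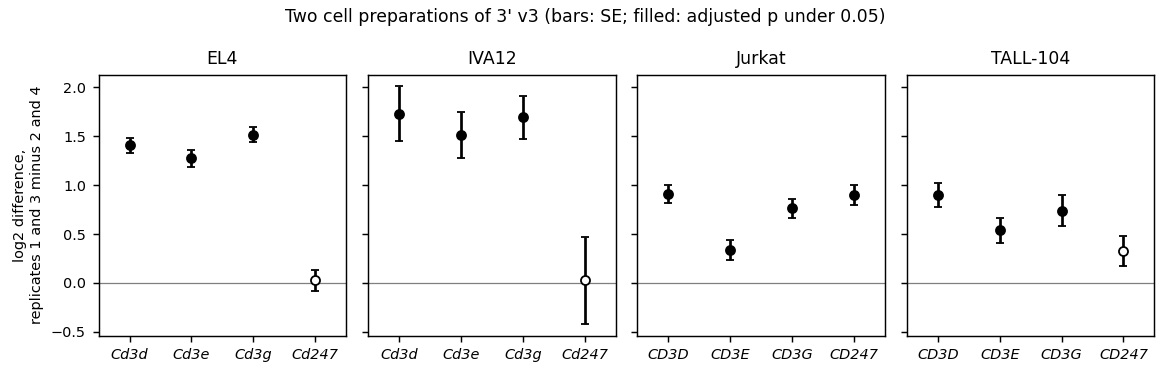
Log2 difference of each CD3 chain between the preparation of 3′ v3 replicates 1 and 3 and that of replicates 2 and 4 (vertical axis), in each line. Bars are standard errors derived from edgeR's log2 difference and F statistic. Filled points have an adjusted p under 0.05, and the line at 0 marks equal levels relative to the median gene. The δ, ε and γ chains are above 0 in all 4 lines (CD3E in Jurkat turns to −0.05 without TMM scaling and CD3G in TALL-104 to −0.10 with a species share over 95%), and Cd247 sits near 0 in both mouse lines. In IVA12 the measured Cd3d was at or below the level expected from free RNA.

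Against that split, no chain of a T cell line was called between 3′ v3 and 5′ v1 by edgeR when all 6 libraries were used, under the settings used throughout. CD3G in TALL-104 was called by DESeq2 (1.31, adjusted p = 0.018), and in edgeR with no filter on low counts, with stricter line assignment and without very large barcodes. In EL4 the log2 differences (3′ v3 minus 5′ v1) were 0.05 for Cd3d, −0.23 for Cd3e, 0.59 for Cd3g and −0.04 for Cd247 (smallest adjusted p 0.40), although 36.7% of genes were called. In Jurkat they were 0.47 for CD3D, −0.40 for CD3E, 0.51 for CD3G and 0.34 for CD247 (smallest adjusted p 0.26, 17.5% of genes called). In TALL-104 they were 0.05, −0.56, 1.31 and 0.07, with an adjusted p of 0.063 for CD3G (4.32% called). Without 3′ v3 replicate 3 they were −0.14, −0.61, 1.00 and 0.03, with an adjusted p of 0.10 for CD3G. In IVA12 Cd3d and Cd3e were higher in 3′ v3, by fitted values of 4.76 (adjusted p = 0.031) and 6.13 (adjusted p = 0.026), where 9.66% of genes were called. Neither call was kept without either 5′ v1 library. With only 5′ v1 replicate 2 left in that kit the fitted values were 5.10 and 4.69, and with only replicate 1 left 4.60 and 9.02. The call of Cd3d was also lost without 3′ v3 replicate 1 (4.73, adjusted p = 0.051).

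The direction in EL4 depended on which preparation was set against 5′ v1. Each side then held loads of 1 cell mixture only, so these p-values measure the spread between loads. The share of all genes called in these fits, here and in the human lines below, is not given. With replicates 1 and 3 only, Cd3d was higher in 3′ v3 by 0.60 (adjusted p = 0.0029) and Cd3g by 1.16 (adjusted p = 2.2e-04). With replicates 2 and 4 only, Cd3d was lower by −0.86 (adjusted p = 1.9e-05), Cd3e by −1.05 (adjusted p = 1.5e-05) and Cd3g by −0.40 (adjusted p = 0.0093).

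In the human lines CD3E and CD3G kept their directions with either preparation, and CD3D and CD247 did not in every case. With replicates 1 and 3 only, CD3D was higher in 3′ v3 in Jurkat by 0.87 (adjusted p = 7.8e-05) and CD247 by 0.72 (adjusted p = 6.0e-05), and with replicates 2 and 4 only they were at 0.02 (adjusted p = 0.89) and −0.13 (adjusted p = 0.29). In TALL-104, CD3D was at 0.41 (adjusted p = 0.10) with the first and lower by −0.48 (adjusted p = 0.0098) with the second, and CD247 at 0.20 and −0.13, neither of which passed. CD3E was lower in 3′ v3 in Jurkat by −0.23 (adjusted p = 0.17) and −0.52 (adjusted p = 3.3e-05), and in TALL-104 by −0.35 (adjusted p = 0.16) and −0.88 (adjusted p = 8.1e-06). CD3G was higher in 3′ v3 in TALL-104 by 1.62 (adjusted p = 1.1e-07) and 0.90 (adjusted p = 5.5e-04), and in Jurkat by 0.85 (adjusted p = 4.1e-05) and 0.15, which did not pass.

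Shares among the 4 chains do not depend on the scaling of the libraries. Of the CD3 UMIs of TALL-104, CD3E made up 34.3% ± 4.24 (SD, n = 4) in 3′ v3 and 49.7% ± 2.49 (n = 2) in 5′ v1, and CD3G 24.1% ± 4.08 and 9.80% ± 0.543. Without 3′ v3 replicate 3 the 3′ v3 shares were 36.4% ± 0.460 and 22.4% ± 2.72 (n = 3). In Jurkat, CD3E made up 23.1% ± 4.06 in 3′ v3 and 34.6% in each 5′ v1 library. The single 3′ v2 library stood lower for ε, at 15.5% in TALL-104, 12.8% in Jurkat and 9.07% in EL4.

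The ratio of CD3D to CD3E UMIs was 0.908 to 1.36 in TALL-104, 1.75 to 2.99 in Jurkat and, for Cd3d to Cd3e, 3.56 to 4.59 in EL4 in 3′ v3. Without replicate 3 it was 0.908 to 1.03 in TALL-104. In 5′ v1 it was 0.655 to 0.756, 1.24 to 1.27 and 3.19 to 3.43, and in 3′ v2 3.74, 5.08 and 6.39. The order of the lines, with EL4 above Jurkat above TALL-104, was the same within each kit, and in each line the ratio was highest in 3′ v2 and lowest in 5′ v1. How well each end of each transcript is captured was not tested. The δ share of EL4 was steady, at 56.2% ± 0.993 in 3′ v3 and 59.8% ± 1.38 in 5′ v1.

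**Figure D4:**
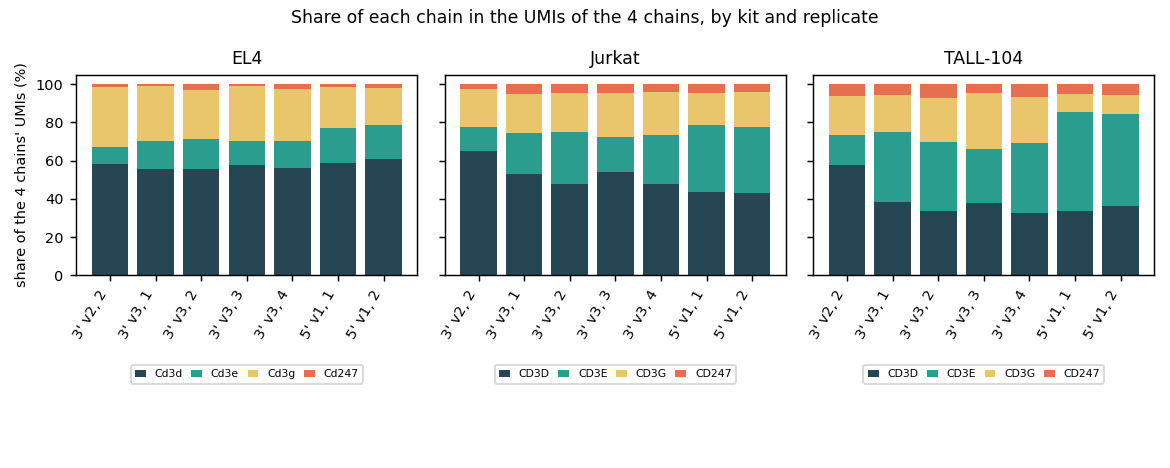
Share of each chain in the summed UMIs of the 4 CD3 chains (vertical axis, percent) in each library, labelled by kit and replicate, for the 3 T cell lines. The ε share is largest in the 5′ v1 libraries and smallest in 3′ v2 in every line, and ζ is the smallest share throughout.

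With every UMI counted, a CD3D UMI was seen in 97.0% to 99.7% of Jurkat cells and in 74.3% to 97.6% of TALL-104 cells, but these cells differ widely in depth. Each cell was therefore thinned to 1000 UMIs. In mouse cells, 38.4% ± 8.88 of EL4 cells (SD, n = 7 libraries) then detected Cd3d against 0.659% ± 0.725 of IVA12 cells. The shares were 12.6% against 0.166% for Cd3e, 20.9% against 0.405% for Cd3g and 1.59% against 0.0692% for Cd247. For each chain EL4 was higher in 7 of 7 libraries, with an adjusted p of 0.021 in the two-sided exact sign-flip permutation test, whose smallest unadjusted p is 0.016. This test was run on the chains only, here and in the human lines, and the share of all genes passing it was not computed.

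At equal depth CD3E was detected in 39.4% ± 6.45 of Jurkat and 55.7% ± 14.9 of TALL-104 cells, and CD247 in 8.70% ± 1.81 and 13.0% ± 1.18, both higher in TALL-104 in 7 of 7 libraries (adjusted p = 0.021, the same exact test). Without 3′ v3 replicate 3 the mean differences were −16.7 and −4.91 points (adjusted p = 0.042, exact). CD3D was detected in 63.4% of Jurkat and 55.6% of TALL-104 cells, higher in Jurkat in 6 of 7 libraries (adjusted p = 0.036, exact), and this call was lost on leaving out any library but 5′ v1 replicate 2 (7.02 to 8.04 points, adjusted p = 0.071). CD3G was detected in 34.7% and 35.2%, a mean difference of −0.51 points ± 4.85 (SD) that did not pass (p = 0.73, exact). As a background, mouse Cd3d was detected in at most 1.14% of Jurkat and 2.51% of TALL-104 cells at that depth. Without thinning, the order of the lines was the opposite for CD3E and CD247: Jurkat, with cells several times deeper, was higher by 13.7 and 36.3 points. CD3G was then higher in Jurkat by 33.5 points.

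Between the kits, with 4 against 2 libraries, the smallest p the exact permutation test can give is 0.067, and none of the 16 pairs of chain and line could pass. At 1000 UMIs, 7 of the 16 pairs did not overlap between kits, and the share of all genes without overlap at that depth was not computed. CD3E was detected in 39.2% of Jurkat cells in 3′ v3 against 45.7% in 5′ v1, with 54.0% against 72.2% of TALL-104 cells. CD3G was detected in 37.1% and 27.2% of Jurkat cells and in 40.6% and 21.6% of TALL-104 cells. These 4 pairs did not overlap and each had an adjusted p of 0.27 in the exact test. Without 3′ v3 replicate 3, 3′ v3 differed from 5′ v1 in TALL-104 by −17.0 points for CD3E and 15.7 for CD3G.

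**Figure D5:**
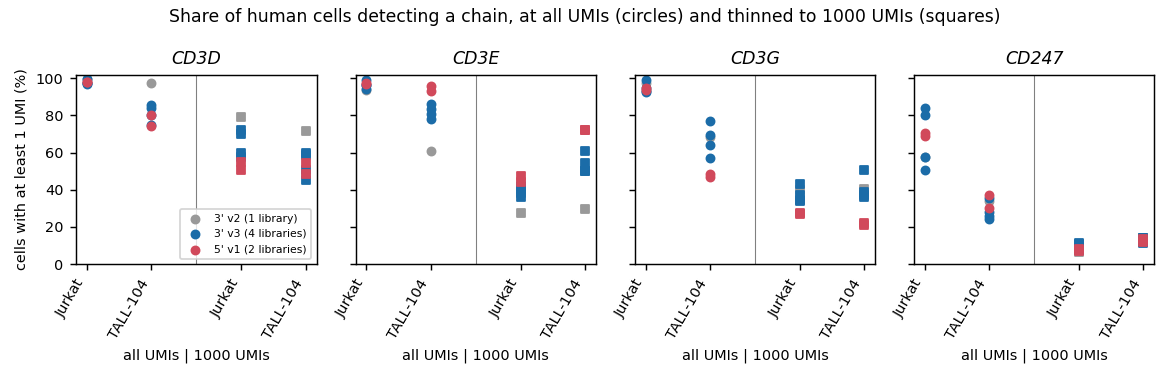
Share of Jurkat and TALL-104 cells with at least 1 UMI of each human CD3 chain (vertical axis, percent), with all UMIs as circles left of the line and after thinning each cell to 1000 UMIs as squares right of it. Each point is 1 library, coloured by kit. Within each library, TALL-104 lies below Jurkat for CD3E and CD247 with all UMIs and above it at 1000 UMIs.

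Among cells with at least 10000 UMIs, which in TALL-104 were too few to describe (0 to 2 per library), 1 of 1166 EL4 cells in 5′ v1 replicate 1 held no UMI of any of the 4 chains, and none did in the other 6 libraries, the largest of which held 2676 such cells. In Jurkat the count was 1 of 2796 cells in 3′ v3 replicate 3 and 0 in the other libraries. As a background at a like depth (median cells of 26148 to 34832 UMIs, against 26074 to 29685 in EL4), 6.48% to 47.1% of IVA12 cells held at least 1 UMI of a mouse chain, and in Jurkat (13231.5 to 20424 UMIs) 2.51% to 31.0% of cells did. Human chains were seen in 0.305% to 45.6% of deep EL4 cells. The free RNA share estimated over all EL4 cells was 24.0% in 3′ v3 replicate 4 and 16.0% in 3′ v2, against 0.290% to 4.68% in the other libraries. These estimates can include UMIs of mixed barcodes. In 3′ v3 replicate 4, a species share over 95% left 1429 of 1486 EL4 cells and 34834473 of their 39586202 UMIs. A single UMI therefore does not mark a cell that expresses a chain. In these deep cells δ, ε and γ were all detected in 74.5% of EL4 cells in 3′ v2, in 87.2% to 97.6% in the other libraries, and in 97.3% to 99.8% of Jurkat cells, against 0% to 0.637% of deep IVA12 cells for the mouse chains. Counting at each cell's depth and the line's mean level would give 76% of EL4 cells in 3′ v2, 90.9% in 3′ v3 replicate 2 (87.3% measured) and 92.9% in 5′ v1 replicate 2 (87.2% measured). ζ was the limiting chain, with no UMI in 58.7% to 77.3% of deep EL4 cells and 11.9% to 39.6% of deep Jurkat cells, against 57.2% to 77.9% and 10.9% to 37.4% expected at their depth.

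For the γ and ε chains, variation between deep EL4 cells beyond counting was larger in 5′ v1 than in the 3′ libraries. For Cd3d the coefficient of variation left after counting noise was 0.34 and 0.33 in 5′ v1. It was 0.24 to 0.26 in 3′ v2 and 3′ v3 replicates 1 to 3, and 0.35 in 3′ v3 replicate 4. That replicate had the free RNA estimate of 24.0% in EL4. Cd3g was absent from 5.40% and 6.25% of deep EL4 cells in 5′ v1, where 2.12% and 3.25% were expected, and the coefficient of variation between cells left after counting noise was 0.56 and 0.77. Cd3e showed 3.95% and 7.16% against 3.14% and 4.22%, with 0.50 and 0.67. In 3′ v3 the coefficients of Cd3g were 0.32 to 0.39 and those of Cd3e 0.26 to 0.39. In Jurkat CD3D, CD3E and CD3G stayed between 0.21 and 0.31 in all 7 libraries. Over all cells from 1000 UMIs up, 11.0% of EL4 barcodes in 3′ v3 replicate 3 held none of the chains where 5.64% were expected. That library had 1351 EL4 barcodes of 1000 to 5000 UMIs, 48.0% of which detected Cd3d.

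A list of 42 genes of receptor assembly, proximal signalling and T lineage transcription was read beside the chains, of which 36 were matched by symbol. In EL4 against IVA12, 31 of 36 were higher and 4 lower in 3′ v3 (median log2 difference 4.65, against 0.02 over all genes), and 30 and 4 in 5′ v1 (6.89 against −0.02). The shares of all mouse genes called were 41.2% higher and 39% lower in 3′ v3, and 37.5% and 38.7% in 5′ v1. Among the called genes with the largest differences in 3′ v3 were Fcer1g (6.66), whose product is a relative of ζ, and the T lineage transcription factors Bcl11b (6.65) and Tcf7 (6.40). Of the 4 lower genes, the 3 with the largest differences were Syk (−5.20), the B cell counterpart of Zap70, the Cd5 relative Cd6 (−4.08) and the pre-receptor chain Ptcra (−1.04). In 5′ v1 the largest were Trat1 (12.21), a receptor-associated adaptor, the transcription factor Gata3 (10.67) and Bcl11b (10.36). IVA12 held 0 UMIs of Trat1 there, 1 of Gata3 in each library, and 2 and 1 of Bcl11b, so these fitted values depend on the fit and are no bounds. Of the 4 lower genes in 5′ v1, those with the largest differences were again Syk (−7.83), Cd6 (−3.93) and Ptcra (−3.24). The values of Syk and Ptcra rest on 3 and 1 and on 0 and 3 UMIs in EL4, and are no bounds either.

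In Jurkat against TALL-104, 10 of the 36 genes were higher and 19 lower in 3′ v3 (median −0.46 against 0.19 over all genes), and 7 and 12 in 5′ v1 (−0.16 against 0.36). Beside these counts, 39.4% and 28.6% of all human genes were called in 3′ v3, and 15.3% and 12.9% in 5′ v1. FCER1G was the most different in both kits, lower in Jurkat by −8.62 and −11.71, the latter on 1 and 2 UMIs in Jurkat and so no bound. Its level was 350 CPM ± 32.8 (SD, n = 4) in TALL-104 and 0.983 ± 0.530 in Jurkat in 3′ v3, so TALL-104 held this ζ relative above its CD247 and Jurkat nearly none. SKAP1 (−3.62 and −3.31), an adaptor, and CBLB (−3.62 and −3.17), a ubiquitin ligase that restrains receptor signalling, came next among the genes lower in Jurkat in both kits. The transcription factors LEF1 (2.93 and 3.35) and RUNX1 (2.33 and 4.05) were higher in Jurkat in both kits, as were PTCRA in 3′ v3 (4.12), at only 6.81 CPM ± 2.69 in Jurkat, and the adhesion receptor CD2 in 5′ v1 (2.18). In TALL-104, the value of RUNX1 in 5′ v1 rests on 4 and 0 UMIs, that of CD2 on 5 and 1, and that of PTCRA on 2 UMIs in replicate 1 and 0 in the other 3′ v3 libraries, so these fitted values are no bounds.

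Between the 3′ v3 preparations the list held calls in both directions, as all genes did, while δ, ε and γ were higher in replicates 1 and 3 in each line, save CD3E in Jurkat without TMM scaling (−0.05) and CD3G in TALL-104 with a species share over 95% (−0.10). In IVA12 the measured Cd3d was at or below the level expected from free RNA, and the part of free RNA in its differences was not tested. The list had 12 genes higher and 8 lower in EL4, 7 and 8 of 31 tested in IVA12, 8 and 17 in Jurkat, and 2 and 13 of 35 tested in TALL-104, beside 30% and 26.8% of all genes in EL4, 33.4% and 34.1% in IVA12, 32.7% and 30.8% in Jurkat, and 19.2% and 20.2% in TALL-104. In EL4 the called genes with the largest differences were Fcer1g (1.82), Cd2 (1.12) and Unc119 (0.91) upward and Cbl (−0.82), Pag1 (−0.75) and Bcl11b (−0.65) downward. In IVA12 they were Themis (1.55), Fcer1g (1.32) and Unc119 (1.17), and Cbl (−1.04), Syk (−0.90) and Cblb (−0.71), but Themis and Fcer1g were at 0.603 and 0.678 CPM on average in IVA12 and at 35.3 and 64.9 CPM in EL4, and the part of free RNA in them was not tested. In Jurkat they included TRAT1 (1.10), CSK (0.86) and UNC119 (0.73), and CBL (−0.93) and CBLB (−0.84). In TALL-104, TRAT1 (0.90) and NCK1 (0.57) were higher, and SYK (−1.57), PAG1 (−1.22) and CBLB (−1.16) were lower the most.

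The genes beside the chains were read in the same way. In the human gene order, MPZL2, CD3E, CD3D, CD3G and UBE4A follow each other, and CD247 lies between POU2F1 and CREG1 (order only, from the RefSeq annotation of GRCh38.p14). Of 10 neighbours in EL4 against IVA12, 2 were higher and 7 lower in 3′ v3 and 3 and 7 in 5′ v1, where 41.2% and 39%, and 37.5% and 38.7%, of all mouse genes were called. Mpzl2, an adhesion protein gene next to Cd3e, was lower in EL4 by −5.12 in 3′ v3 and −8.15 in 5′ v1, the opposite of the chains. In 5′ v1 EL4 held 1 and 0 UMIs of Mpzl2 and IVA12 held 6 and 5 of Rcsd1, so the fitted values of these genes there are no bounds. Amica1 (−3.44 in 3′ v3), Mpzl1 (−3.23 in 5′ v1) and Creg1 (−2.18 and −2.69) were also lower, whereas Rcsd1 (5.43 and 7.87) was higher and Kmt2a (0.34 and 0.55) and, in 5′ v1, Mpzl3 (0.55) were slightly higher.

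In Jurkat against TALL-104, 5 of 10 neighbours were higher and 4 lower in 3′ v3 (39.4% and 28.6% of all genes), and 1 and 4 in 5′ v1 (15.3% and 12.9%). MPZL2 (−6.58 and −7.48), AMICA1 (−6.29 and −7.40) and MPZL3 (−4.03 and −4.12) were lower in Jurkat in both kits, MPZL1 was higher in both (1.79 and 2.13), and CREG1 (1.34) and POU2F1 (1.00) were higher in 3′ v3. The 5′ v1 values of MPZL2 (2 and 1 UMIs in Jurkat, 2 and 3 in TALL-104), MPZL3 (7 and 5 UMIs in TALL-104) and MPZL1 (3 and 2 UMIs in TALL-104) rest on those few UMIs. That of AMICA1 rests on 12 and 5 UMIs in Jurkat and 22 and 3 in TALL-104. Between the preparations, 2 neighbours were higher and 4 lower in EL4 (30% and 26.8% of all genes), 3 and 3 in IVA12 (33.4% and 34.1%), 1 and 4 of 9 tested in Jurkat (32.7% and 30.8%), and 3 and 2 in TALL-104 (19.2% and 20.2%). Atp5l, an ATP synthase subunit gene, was higher in replicates 1 and 3 in all 4 lines (0.91 in EL4, 1.10 in IVA12, 1.06 in Jurkat, 0.92 in TALL-104). Kmt2a, a histone methyltransferase gene, was lower in all 4 (−1.39, −1.24, −0.76 and −1.20), as was Pou2f1 (−0.99, −1.05, −1.03 and −1.62).

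Over the 14 sums of a species (7 libraries in 2 lines), the genes whose log2(CPM + 1) followed a chain most closely were named for each chain, as a description in which all points of a library share its depth and kit. Among 5331 mouse genes with a mean of at least 20 CPM, Cd3d was nearest to Gm4208 (Pearson r = 0.997), Cd3e (0.995) and Stard10 (0.994), and Cd3e to Itm2a (0.995), Cd3d and Id2 (0.994). Cd3g was nearest to Pdcd1 (0.993), Abracl and Acta2 (both 0.993), and Cd247 to Lrmp (0.997), Lcp2 and Smo (both 0.994). The mean level of the genes named here was 46.3 to 2831 CPM in EL4 and 0.53 to 23.9 CPM in IVA12.

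Among 6309 human genes the likeness was looser for δ and γ than for ε and ζ. CD3D was nearest to COX5B (0.884), RPL35A (0.870) and RPS15 (0.866), a respiratory chain gene and a pair of ribosomal protein genes, and CD3G to IK (0.90), CHMP4A (0.896) and RAB5C (0.856). CD3E was nearest to OTUB1 (0.970), PQLC3 (0.966) and ANXA11 (0.959), and CD247 to STX8 (0.973), TMBIM6 (0.953) and PHF23 (0.935). No human chain was among the 3 nearest genes of another.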

How the data were processed

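The authors' deposited files hold whole UMI counts per gene and barcode, not normalized, for every barcode of the kit's list. Per the study's methods and the submitters' processing notes, reads were downsampled and counted with Cell Ranger 3.0.2 against its combined hg19 and mm10 reference 1.2.0. Counts were summed per library and line (7 libraries, 24790710 to 251164949 UMIs, in which a count of 0 allows up to 3 UMIs). No doublet caller was run, and mixed-species barcodes were left out.

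Line sums of 3′ v3 and 5′ v1 were tested with edgeR 4.0.16 in R 4.3.3 (TMM, filterByExpr, quasi-likelihood F-test, Benjamini-Hochberg over all genes tested, threshold 0.05). Each SE is the absolute log2 difference divided by the square root of its F statistic. Lines were compared with the library as a block, and kits without one. Shares of cells were tested by exact permutation (scipy 1.17.1). Scripts were tested on simulated data. DESeq2 1.42.0, no filter, no TMM, other cell filters, each library left out and each preparation alone were tried. The comparison of the preparations, with its alternatives, and a limit of 10000 UMIs per cell were added after seeing the data.

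The members and lists were chosen with earlier results of these data known. Named genes are the 8 chains, the 3 genes nearest in pattern to each, and, of both lists, the called genes with the 3 largest differences each way, except that some items are not reported here.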

Additional observations from a re-analysis of the deposited data

Results flagged for a closer look

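Of the results looked at, 2 met a criterion for a closer look, both because the difference between the lines was itself different between the kits. The log2 difference of Cd3d between EL4 and IVA12 was lower in 3′ v3 than in 5′ v1 by a fitted value of −4.70 (edgeR, adjusted p = 7.9e-05), and that of Cd3e by −6.51 (adjusted p = 1.0e-04). IVA12 held 6 and 2 UMIs of Cd3d and 0 and 1 UMIs of Cd3e in the 5′ v1 libraries, so both fitted values rest on those few UMIs and are no bounds. The free RNA share estimated in IVA12 cells was 3.98% to 8.58% in 3′ v3 and 0.308% to 0.872% in 5′ v1, and its part in the result was not tested. No sample stood apart from its group in the 32 groups of 4 libraries looked at, where chance marks about 1 in 20 if the 4 are alike. They come from 2 preparations, and where values fall in pairs by preparation this rule cannot mark a library.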

How the results depend on the processing

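Apart from the limit of 10000 UMIs per cell, which was run only for the kits in EL4, IVA12 and Jurkat, the alternatives tried all kept the direction and the call of the 4 mouse chains between EL4 and IVA12 in both kits, and of the difference between kits of Cd3d and Cd3e. Elsewhere, calls of chains out of 4 changed as follows, and leaving out a 5′ v1 library left only 1 library of that kit. Between Jurkat and TALL-104, 4 chains were called in 3′ v3, 2 with a species share over 95% and 1 with no replicate block. There CD3D also lost its call with no filter (adjusted p = 0.096), under 10% mitochondrial UMIs (0.14), at least 2000 UMIs (0.13) and without very large barcodes (0.11), and CD3G with stricter line assignment (0.15). In 5′ v1, 2 were called, 0 to 2 when leaving out a library, and 1 with no filter, at least 2000 UMIs per cell, a species share over 95%, the stricter line assignment, or no replicate block. The human difference between kits had 0 calls, 0 to 1 when leaving out a library, 2 with the preparation of 3′ v3 replicates 1 and 3 alone and 3 with that of replicates 2 and 4 alone. Between kits, these 2 preparations alone gave 2 and 3 calls in EL4, 3 and 1 in Jurkat, and 1 and 3 in TALL-104, where all libraries gave 0. The share of all genes called with 1 preparation alone is not given here. TALL-104 had 1 call with DESeq2, with no filter, with stricter line assignment and without very large barcodes, and 0 to 1 when leaving out a library. IVA12 had 2 calls, 0 to 2 when leaving out a library, and 3 and 2 with these preparations alone (Cd3g 1.51, adjusted p = 2.4e-04, in the first). Between the preparations, TALL-104 lost all 3 calls (0 left) with a species share over 95%, and that of CD3G with DESeq2 (0.75, adjusted p = 0.051). CD3E lost its call between the preparations without TMM in Jurkat (−0.05) and TALL-104 (0.20). It also lost its call in these lines without 3′ v3 replicate 4 (0.26 and 0.47), which leaves replicate 2 alone on its side. The shares of cells had 7 calls between lines and 0 with either preparation alone, where the fewer libraries cannot reach the threshold. The share of all genes passing that test was not computed.

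Directions turned for the following log2 differences. Leaving out a library gave −0.23 to 0.13 for CD3D between the human lines in 5′ v1. For the human difference between kits, it gave −0.0222 to 0.325 for CD3E and −0.0673 to 0.253 for CD247, and replicates 2 and 4 alone gave −0.0565 for CD247. Between kits it gave −0.21 to 0.27 for Cd3d and −0.0959 to 0.0116 for Cd247 in EL4, and −0.14 to 0.19 for CD3D and −0.0386 to 0.157 for CD247 in TALL-104. Between the preparations it gave −0.10 to 0.14 for Cd247 in EL4 and −0.36 to 1.19 in IVA12. With 3′ v3 replicates 2 and 4 alone, the kit difference was −0.86 for Cd3d and −0.40 for Cd3g in EL4, −0.21 for Cd3g in IVA12, −0.13 for CD247 in Jurkat, and −0.48 for CD3D and −0.13 for CD247 in TALL-104, and with replicates 1 and 3 alone it was 0.27 for Cd3e in EL4. Cd247 in EL4 between kits was 0.0364 without TMM, 0.0295 with cells under 10% mitochondrial UMIs and 0.0164 with at least 10000 UMIs per cell. In TALL-104 between kits, CD3D and CD247 were −0.101 and −0.0440 without TMM, −0.0171 and −0.0126 with at least 2000 UMIs, and −0.151 and −0.0894 with a species share over 95%. Between the preparations without TMM, Cd247 was −0.34 in EL4 and −0.21 in IVA12, CD3E was −0.0515 in Jurkat and CD247 −0.00740 in TALL-104. With a species share over 95%, Cd247 was −0.00335 in EL4, and CD3G and CD247 were −0.10 and −0.11 in TALL-104. Cd247 in IVA12 was −0.00954 with at least 2000 UMIs and −0.0724 with stricter line assignment. Between the human lines, the difference in cells detecting was 13.7, 33.5 and 36.3 points for CD3E, CD3G and CD247 without thinning. For CD3G it was 0.69 with at least 2000 UMIs, 3.74 with a species share over 95%, 0.55 and 0.79 with either preparation alone and −1.54 to 0.65 when leaving out a library. The causes were not tested. The shares of cells lost CD3D (4.69 points, adjusted p = 0.23) and CD247 (−3.16, adjusted p = 0.083, exact) with a species share over 95%. The number of UMIs counted limits the chains in IVA12 (0 to 599 per chain and library), and in TALL-104 of 5′ v1 (15 to 284 UMIs per chain) and 3′ v2 (19 to 172).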
